A study of Drosophila melanogaster with 2 samples.

Results

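The 33 genes described here encode regulators of neuroblast identity and of asymmetric division in Drosophila melanogaster. They were taken as a list of names and not filtered by peak values. Earlier results of these data were known when the genes and their groups were chosen. All 33 were found among the 13968 protein-coding genes that Ensembl BDGP6 places on the 7 chromosome arms. By known role they comprised 6 proneural genes, 7 neuroblast transcription factor genes, 10 asymmetric division genes, 7 temporal genes and 3 columnar genes. Their binding by Sox102F, a SoxD-family protein with an HMG box, was read from ChIP-seq peaks of whole embryos aged 12 to 14 h. The 2 samples were biological replicates, numbered 2 and 3, of 1 group, both from the transgenic line Sox102F-GFP, in which GFP is fused to the C-terminus of Sox102F and was recovered with an anti-GFP antibody. No untagged or other group was analysed here. Neither the promoter of the tagged gene nor the state of the endogenous one was stated by the labels. Chromatin came from all tissues of the embryo, so a peak cannot be assigned to neuroblasts, and no expression was measured.

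Neuroblasts are the stem cells of the fly central nervous system. Proneural basic helix-loop-helix proteins let cells of the neuroectoderm become neuroblasts, columnar homeodomain proteins give them a position along the dorsoventral axis, and a sequence of temporal factors changes the fate of their successive progeny. At each division a polarity complex at the apical cortex drives fate determinants into the smaller daughter, the ganglion mother cell, which divides to give neurons or glia.

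Peaks were taken from a pooled list of 30000 and from its 7488 highest, the optimal list. Peak height is given as the deposited signal value, whose minimum was 97.2 in the optimal list and 18.7 in the pooled list. Read depth was unknown. A gene was counted at its promoter when any of its transcription start sites (TSSs) had a summit at 500 bp or less, in its body when a summit lay between its first and last annotated base, and in its region when a summit lay in the gene or within 10 kb of it. Genes of similar length were all other protein-coding genes whose annotated length was 80% to 125% of its own, since long genes hold more summits. No test was made over the 33 genes, and the shares over all genes stand beside the counts.

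Of the 24 optimal summits in the bodies of the 33 genes, 18 lay in asymmetric division genes, 3 in neuroblast transcription factor genes, 3 in 1 temporal gene, and none in proneural or columnar genes. Of the 33 genes, 5 (15.2%) held an optimal summit at a promoter, against 16.9% of all protein-coding genes and 22.6% of genes of similar length. In the body it was 8 (24.2%), against 14.3% of all genes and 31.2% of genes of similar length. In the region it was 19 (57.6%), against 65.5% of all genes and 72.0% of genes of similar length. In the pooled list, 9 genes (27.3%) held a summit at a promoter, against 29.5% of all genes and 39.8% of those of similar length, 13 (39.4%) in the body, against 23.7% of all genes and 44.2% of those of similar length, and 27 (81.8%) in the region, against 81.3% and 85.5%. The share among the 33 genes was thus below that of genes of their length at promoters, in bodies and in regions, in both lists. In pooled regions the gap was small, 81.8% against 85.5%. In bodies the share was above that of all genes in both lists. The groups differed in the optimal list. At promoters, 4 of the 10 asymmetric division genes held a summit (40.0%, against 26.1% of genes of similar length), and 1 of the other 23 (4.35%, against 21.0%). In regions, asymmetric division (80.0%, against 76.1%) and neuroblast transcription factor genes (85.7%, against 69.6%) were above genes of their length. Columnar (66.7%, against 70.8%), temporal (28.6%, against 78.2%) and proneural genes (16.7%, against 61.4%) were below.

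In their bodies the asymmetric division genes were near genes of their length, and the other 23 held fewer summits than the means of such genes. In the optimal list 5 of the 10 asymmetric division genes held a body summit, against 43.1% of genes of similar length, and their bodies held 18 summits, against a sum of 15.2 for the means of similar-length genes. In the pooled list it was 6 of 10, against 58.6%, with 61 summits against 65.0. Of the other 23 genes, 3 (13.0%) held one, against 26.1%, and they held 6 summits, against 16.7. In the pooled list it was 7 (30.4%), against 38.0%, with 49 summits against 67.9. Among these, temporal genes held 3 summits against 10.7, neuroblast transcription factor genes 3 against 4.06, columnar genes 0 against 1.70 and proneural genes 0 against 0.185. The proneural genes, with a median length of 1330 bp, are too short for their bodies to be informative. No test of the difference between the groups was made.

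**Figure D1:**
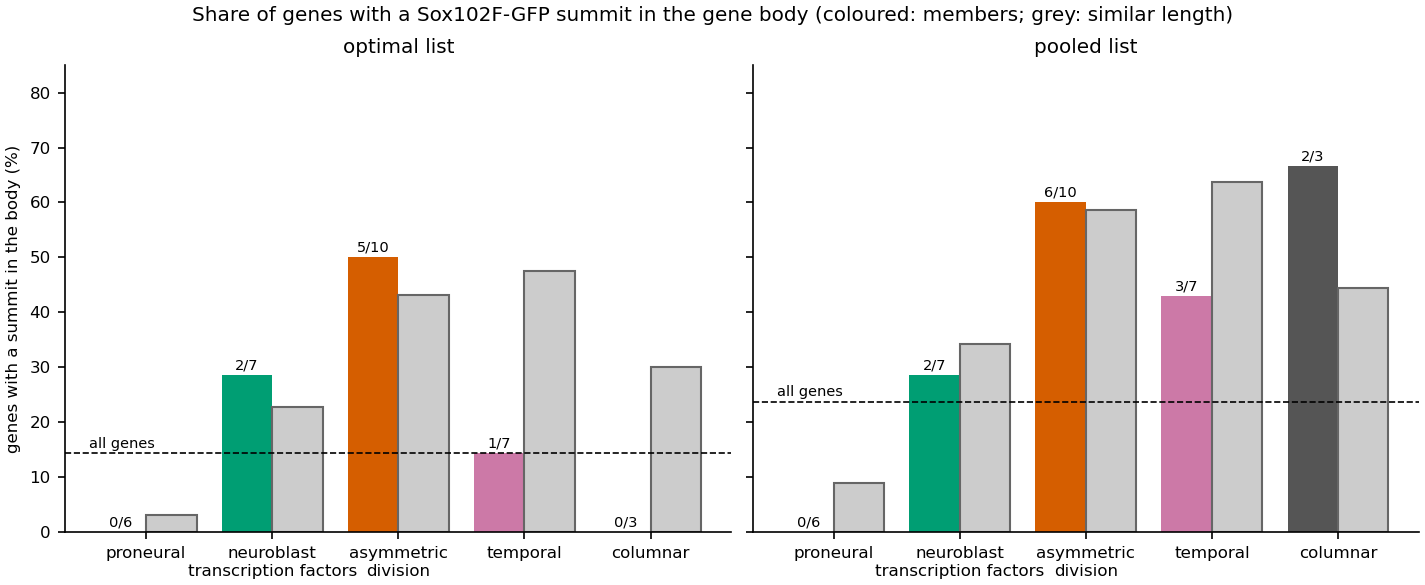
Share of genes (%) with a summit in the gene body in each group of members (coloured bars, counts above), beside the share among genes of similar length (grey bars) and among all protein-coding genes (dashed line), in the optimal (left) and pooled (right) lists. The coloured bar is below the grey one for temporal genes in both lists (14.3% against 47.5%, and 42.9% against 63.8%), and for proneural genes in both (0 of 6, against 2.98% and 8.81%). It is also below for columnar genes in the optimal list and for neuroblast transcription factor genes in the pooled list. It is above for asymmetric division genes in both lists, neuroblast transcription factor genes in the optimal list and columnar genes in the pooled list.

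**Figure D2:**
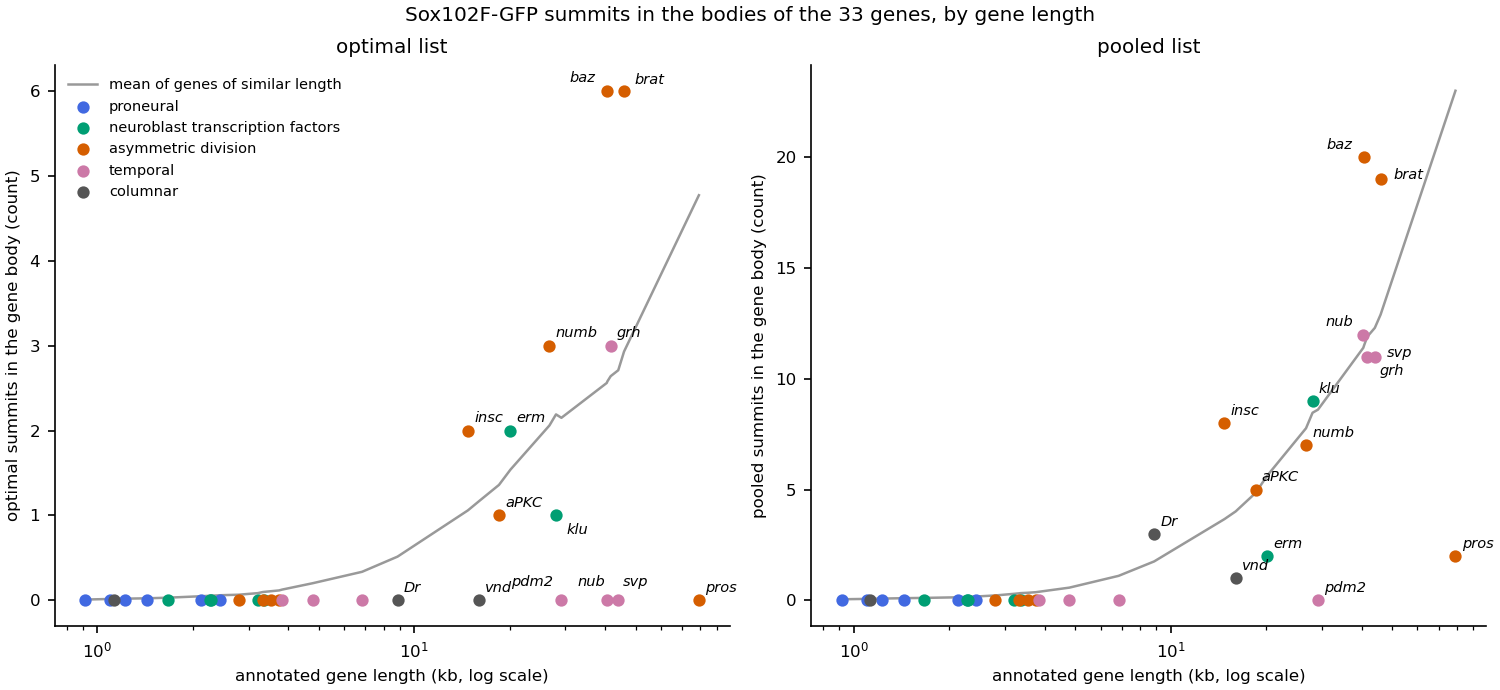
Number of summits in the body of each gene against its annotated length in kb (log scale), with the mean over genes of similar length as a grey line, in the optimal (left) and pooled (right) lists. brat and baz, with 6 optimal summits each, lie above the line, and pros, with 0, lies below it.

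Among the fate determinants passed to the ganglion mother cell, brat held the highest peak of the whole list of genes. brat encodes a translational repressor of the TRIM-NHL family and spans 45943 bp (2L, 19133816 to 19179758, plus strand). Its body held 6 optimal summits, or 1.31 per 10 kb, and 14.1% of 262 genes of similar length held more. The highest, at 19165150, had a signal value of 1591 and ranked 116 among the optimal peaks. Its value was 574 in replicate 2 (rank 130) and 1017 in replicate 3 (rank 112). It lay in intron 2 of the canonical transcript (20240 bp long), 717 bp upstream of an internal TSS of brat. This peak stood far above the others of the gene, whose signal values in the body were 136 to 239. Another 4 of the 6 lay in intron 1, nearer to the TSS of the overlapping gene Polr1D than to one of brat. The promoter summit, 140 bp upstream of the first TSS, had a value of 131 (47.0 in replicate 2 and 82.1 in replicate 3) and also lay inside Polr1D. It was the lowest of the optimal summits in the region of brat, and below the median signal of the optimal list. The other optimal summit there, of 273 (78.8 in replicate 2 and 194 in replicate 3), lay upstream, 137 bp from the TSS of AsnRS.

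numb encodes an inhibitor of Notch that gives the daughters of a division different fates. It spans 26716 bp (2L, 9437469 to 9464184, plus strand) and held 3 optimal summits in its body, against a mean of 2.06 in genes of similar length. The highest lay 167 bp upstream of its second TSS, with a signal value of 591 (228 in replicate 2 and 357 in replicate 3). The other 2, of 154 and 106, lay 1829 bp upstream of that TSS and 995 bp downstream of the first. At the first TSS itself the summits within 500 bp were all weak, from 21.2 to 40.0 in the pooled list, and none was in the optimal list. Each lay in a peak of 1 replicate only, replicate 2 for those of 40.0 and 21.2 and replicate 3 for that of 33.9. Both replicates thus had a peak near this TSS. With the 5′ end of the gene as the single TSS, numb no longer counted as promoter-bound. A higher peak, of 917, 6221 bp upstream, lay 157 bp from the TSS of scat.

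The other determinants and their adaptors had no optimal summit in their bodies. pros encodes a homeodomain protein that ends the stem cell programme in the ganglion mother cell. It is the longest gene of the list, with 79148 bp, and held 0 optimal and 2 pooled body summits (signal values 88.0 and 29.8), where 77.9% of genes of similar length held an optimal summit and their mean pooled count was 23.0. Both pooled summits were nearer to the TSS of KP78b, which lies inside pros. The full list of replicate 2 had 8 summits in its body and that of replicate 3 had 3. Among as many of the highest peaks of replicate 2 as the optimal list holds, at least 1 lay in the body of pros. The single optimal summit in its region, 834, was 71 bp from the TSS of mgr, downstream of pros. mira, which encodes the adaptor that carries Prospero and Brat, had no optimal or pooled summit within 10 kb, and its nearest pooled summit was 24442 bp from a TSS, though the full list of replicate 2 had 3 summits in its region. pon, which encodes the partner of Numb, had its nearest pooled summit 17710 bp upstream. mira and pon are short, with 3322 and 2795 bp. Of genes of similar length, 8.86% and 6.38% held an optimal body summit, so their empty bodies are not informative.

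The polarity complex of Bazooka, Par-6 and aPKC marks the apical cortex. baz (X, 17160006 to 17200728, plus strand, 40723 bp) held 6 optimal and 20 pooled summits in its body, and 10.6% and 16.8% of 303 genes of similar length held more. It had 1 annotated TSS and no pooled summit within 8514 bp of it. The 6 optimal summits lay 10613 to 27736 bp downstream of that TSS, with signal values of 165, 135, 176, 285, 197 and 188 in their order along the gene. In replicate 2 these peaks had values of 35.6 to 123, and in replicate 3 of 98.6 to 165, so that all 6 were seen in both. For the 2 farthest from it, the TSS of TTLL1A was nearer. Of these, 2 lay in exon 2 of the canonical transcript, in its 5′ UTR, 2 in intron 1, 1 in intron 2 and 1 in intron 3. par-6 (3745 bp, X) held no body summit, and its promoter summit, with a signal value of 450, lay 445 bp upstream of its TSS and 117 bp from that of the neighbouring gene CG8188. This summit lay in a peak of replicate 3 (243) and in none of replicate 2, and the promoter window of 250 bp no longer held it. The other 5 optimal summits in the region of par-6 were nearer to chas, with values of 118, 312 and 525, or to raskol, with values of 163 and 329.

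The sequences below are 101 bases around summits in brat, numb, baz, erm and klu. For brat, numb, erm and klu the highest optimal peak of the body is shown, and for brat and baz also peaks that hold a searched word. They are from the plus strand of the RefSeq genome of the dm6 assembly (Release 6), 5′ to 3′. Capitals mark ACAAT, the core of the Sox site, and TAACA, the same letters reversed, on either strand (ATTGT and TGTTA), and these may overlap.
brat (chr2L:19165100-19165200): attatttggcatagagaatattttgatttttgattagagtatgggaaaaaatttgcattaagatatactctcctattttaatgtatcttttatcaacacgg
brat (chr2L:19141857-19141957): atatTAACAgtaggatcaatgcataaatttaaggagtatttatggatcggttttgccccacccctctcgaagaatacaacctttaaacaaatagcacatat
numb (chr2L:9449613-9449713): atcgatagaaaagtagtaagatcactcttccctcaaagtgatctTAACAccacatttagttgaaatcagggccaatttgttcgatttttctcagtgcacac
baz (chrX:17181715-17181815): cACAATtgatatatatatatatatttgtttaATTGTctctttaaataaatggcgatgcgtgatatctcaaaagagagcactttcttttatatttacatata
baz (chrX:17174319-17174419): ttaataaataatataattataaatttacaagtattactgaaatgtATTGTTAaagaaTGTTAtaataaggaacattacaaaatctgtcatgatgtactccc
erm (chr2L:1959610-1959710): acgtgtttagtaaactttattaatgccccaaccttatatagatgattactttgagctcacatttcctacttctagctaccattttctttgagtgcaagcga
klu (chr3L:11003043-11003143): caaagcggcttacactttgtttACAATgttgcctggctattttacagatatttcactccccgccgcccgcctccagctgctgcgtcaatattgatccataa
Of 20 such summits at or in the members on the arms shown, 5 held ACAAT, 7 held TAACA and 9 held neither, among them the highest peak at brat and the highest at baz. One summit of baz, at 17174369, held both words in overlap.

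Over all 65 optimal summits in the regions of the 33 genes, 15 (23.1%) held ACAAT within 50 bp, against 33.9% of the 7488 optimal summits, and 19 (29.2%) held TAACA, against 29.9%. For the 24 in gene bodies the share with ACAAT was 29.2%. In the pooled list ACAAT lay at 25.8% of 248 summits, against 30.3% of all. The median share of A and T in these windows was 71.3% for the 65 optimal summits and 70.3% for all. A match of such short words is a description and not a site.

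aPKC encodes the kinase of the polarity complex (2R, 14944458 to 14962969, minus strand). Its promoter summit, 115 bp upstream of a TSS, had a signal value of 232 (82.5 in replicate 2 and 157 in replicate 3). This summit was also within 500 bp of a TSS of the neighbouring gene ckn. A weak pooled summit, of 24.2, 318 bp upstream of aPKC, lay 5 bp from that TSS of ckn. The body of aPKC held 1 optimal summit, of 283, in intron 1. Of the 8 optimal summits in the region of aPKC, 5 lay in ckn, and the highest of all 8, 405, was among those 5. insc, which links the polarity complex to the spindle, held 2 optimal summits in its body on 2R, of 496 and 133, both in intron 1 and both nearer to the TSS of sktl, a gene that lies inside insc. Another, of 168 (79.1 in replicate 2 and 93.0 in replicate 3), lay 2063 bp upstream of insc. Its own first TSS is shared with a transcript of sktl and held 2 weak pooled summits, of 43.5 and 45.4. The first lay in a peak of replicate 3 only (40.2) and the second in a peak of replicate 2 only (44.0). Both replicates thus had a peak near this TSS, with different summits. Among the highest peaks of replicate 2 alone, insc also counted as promoter-bound. pins, whose protein orients the spindle, held none in its body, and the 1 optimal summit in its region, of 220, lay 80 bp from the TSS of wdb.

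**Figure D3:**
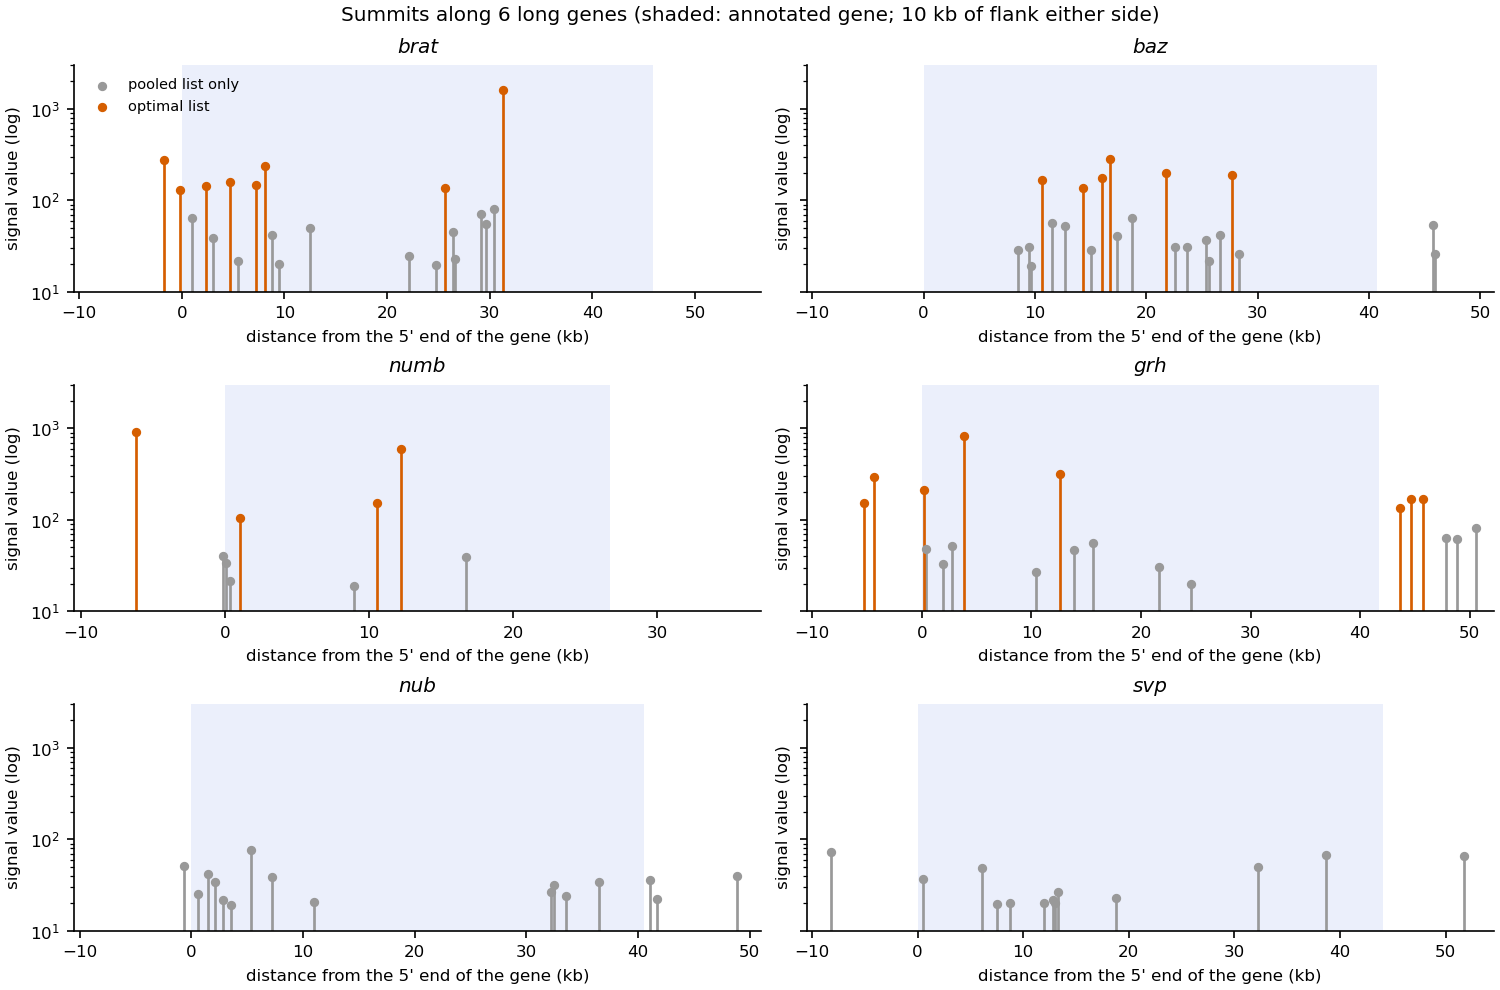
Summits along brat, baz, numb, grh, nub and svp, by distance from the 5′ end of each gene in kb (shaded: the annotated gene, with 10 kb of flank on each side), with the signal value on a log scale. Orange stems are optimal summits and grey stems those of the pooled list only. At nub and svp every summit is grey, and at brat 1 summit reaches 1591.

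Of the temporal genes, which are expressed one after another in neuroblasts, grh alone held optimal summits at its promoter or in its body. At promoters that was 1 of 7 (14.3%), against 28.2% of genes of similar length and 16.9% of all genes. In bodies it was also 14.3%, against 47.5% and 14.3%. In regions 2 of the 7 (28.6%) held one, against 78.2% and 65.5%. grh encodes a CP2-family transcription factor of late neuroblasts that also acts in the epidermis (2R, 17801132 to 17842820, plus strand). Its promoter summit, 159 bp downstream of its first TSS, had a signal value of 211 (71.0 in replicate 2 and 137 in replicate 3). The highest, of 833, lay in intron 1, with 340 in replicate 2 and 498 in replicate 3, and another, of 315, lay 585 bp upstream of an internal TSS. Its 3 body summits stood beside a mean of 2.64 in genes of similar length. The other 5 optimal summits in its region lay in Dhit, with values of 153 and 293, and in Orai, with values of 135, 168 and 169.

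nub and svp held only weak summits. nub encodes a POU-domain protein of the middle of the temporal sequence, and its body of 40511 bp held 12 pooled summits, beside a mean of 11.4 in genes of similar length, with signal values of 19.0 to 75.6. The last 4 of these also lay in Ref2, which overlaps nub. svp encodes an orphan nuclear receptor that helps to switch off hb, and its body held 11, beside a mean of 12.3, with values of 19.6 to 66.8. Of the 11, 7 were nearer to the TSS of CG44038 or CG17738, which lie inside svp, than to one of svp. Neither reached the lowest value of the optimal list. Optimal summits were held by 71.1% of genes as long as nub and by 71.4% of those as long as svp. svp had a pooled summit 502 bp from a TSS, just outside the promoter window. pdm2, the neighbouring paralog of nub, held no optimal or pooled body summit in 29142 bp, where 86.1% of genes of similar length held a pooled one, though the full list of replicate 2 had 3 summits in its body.

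hb and Kr encode the zinc finger proteins that open the temporal sequence, and cas encodes one that acts late in it. None held a body summit in either list. Of genes of similar length to hb, Kr and cas, 24.6%, 15.8% and 11.0% held an optimal one. A pooled one was held by 41.7%, 28.0% and 21.7%. The nearest pooled summit was 8154 bp from a TSS at hb and 11144 bp at cas, the latter in an intron of plx with a signal value of 326. At Kr it was 55719 bp away, and the nearest optimal summit 59254 bp, the largest distances of the 33 genes in both lists.

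Of the 5 groups, the proneural genes had the largest median distance to an optimal summit. The median distance from a TSS to the nearest optimal summit was 24512 bp for the 6 genes, against 6742 bp over all protein-coding genes, 5107 bp for neuroblast transcription factors, 1720 bp for asymmetric division genes, 14270 bp for temporal and 10755 bp for columnar genes. The genes ac, sc and l(1)sc, which confer neural potential, and ase, a gene of neural precursors, lie together as the achaete-scute complex. Its 93.1 kb, from the start of ac to the end of ase (X, 370031 to 463176), held no optimal summit and 2 pooled summits, or 0.215 per 10 kb against 2.31 over the X chromosome. The full list of replicate 2 had 4 summits there and that of replicate 3 had 1. The nearest optimal summit of ac, sc and l(1)sc was the same one, of 175, 7780 bp upstream of ac in an intron of CG32816. It lay 33809 bp from sc and 47470 bp from l(1)sc. These distances are thus not independent, and the proneural median rests in part on this stretch. Distances were not compared with those of genes of similar length. ato, which founds chordotonal organs and photoreceptors, and tap, a bHLH gene of the neurogenin family, had 2 pooled summits each in their regions and no optimal one.

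**Figure D4:**
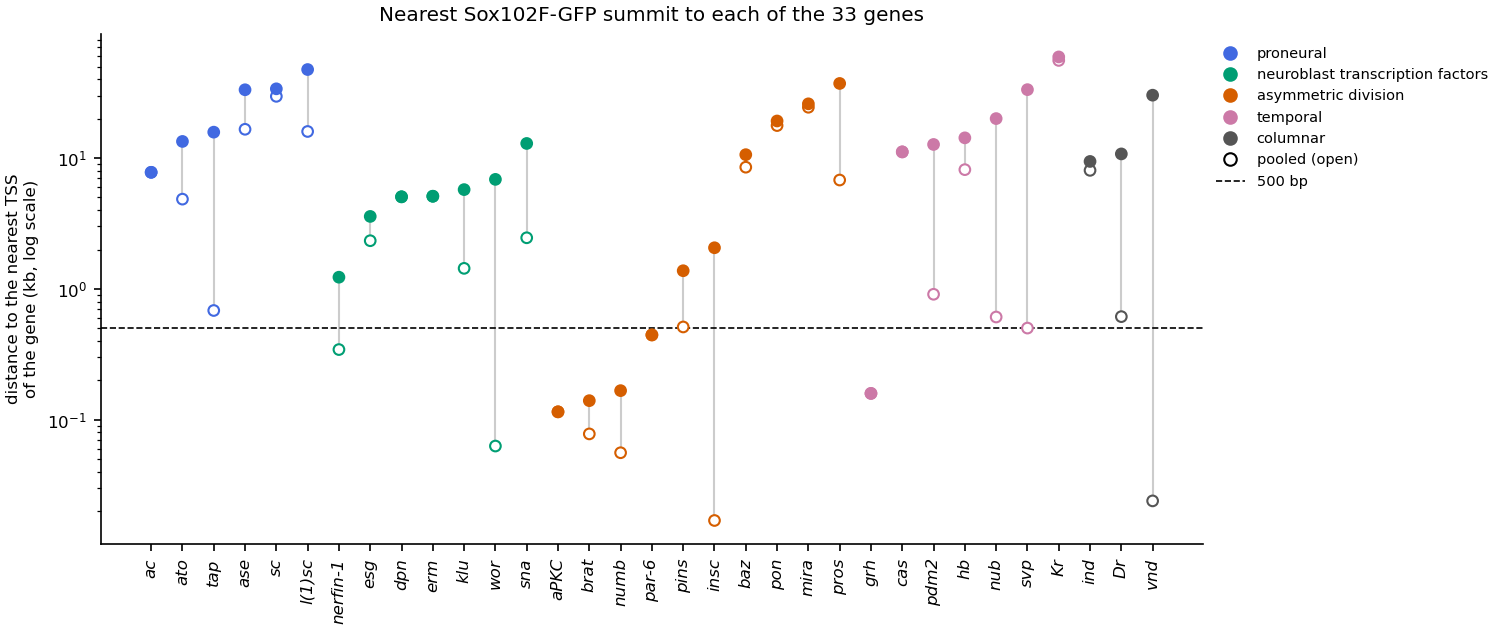
Distance in kb (log scale) from the nearest TSS of each of the 33 genes to the nearest optimal summit (filled) and pooled summit (open), with the promoter limit of 500 bp as a dashed line and the genes ordered by distance within each group. Below the line lie 5 filled points, at aPKC, brat, numb, par-6 and grh.

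Among the transcription factors that maintain or restrict neuroblasts, most optimal summits lay in the flanks. None of the 7 held an optimal summit at a promoter, against 20.4% of genes of similar length, 2 (28.6%) held one in the body, against 22.8%, and 6 (85.7%) in the region, against 69.6%. Among peaks above the median signal of the optimal list, 2 of the 7 held one in the region, where 49.9% of all genes did. erm encodes a zinc finger protein that limits the fate of intermediate progenitors (20124 bp on 2L). Both of its pooled body summits were also optimal, with values of 182 and 111, and they lay 5107 and 5714 bp upstream of its nearest TSS. klu, a zinc finger gene of neuroblast self-renewal (28018 bp on 3L), held 9 pooled body summits, beside a mean of 8.47, of which 1, at 105, was optimal. It was not found among as many of the highest peaks of replicate 3 alone, and no peak in the region of erm or klu reached the median signal of the optimal list, 204.

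The shorter genes of this group had their summits in the flanks. nerfin-1, whose zinc finger protein keeps neurons from reverting, had 3 optimal summits upstream, the nearest 1229 bp from its TSS with a value of 187 (72.2 in replicate 2 and 113 in replicate 3), and a pooled promoter summit of 63.3. The other 2 upstream, of 217 and 151, were nearer to mat, and 1 downstream, of 184, lay in Glut1. dpn, a bHLH repressor gene that maintains neuroblasts, had 4 upstream, from 5056 to 9933 bp, with values of 418, 213, 696 and 144. All 4 were nearer to the TSS of the septin gene pnut. The Snail-family genes esg, wor and sna lie close together on 2L, and the 144 kb from esg to sna held 63 pooled summits, or 4.36 per 10 kb against 2.46 over the arm, but 7 optimal ones, or 0.485 against 0.609. The region was set by these 3 genes and includes the genes between them. esg had 4 optimal summits in its region, of 102 to 173, and 3 of them, downstream of the gene, had esg as the nearest TSS. wor had 1, of 188, nearer to CG4161, and sna had none.

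The columnar genes vnd, ind and Dr encode the homeodomain proteins of the ventral, intermediate and dorsal columns. None held an optimal summit at a promoter or in the body. Of genes of similar length, 21.8% held one at a promoter and 30.0% in the body, and of all genes 16.9% and 14.3%. With 3 genes, such counts say little. vnd had 1 pooled summit, of 30.0, at 24 bp from a TSS, which lay in a peak of neither replicate. Dr had 3 pooled body summits, of 26.9 to 40.5, each in a peak of replicate 3 and in none of replicate 2. An optimal summit of 299 lay downstream of Dr, 10755 bp from its TSS, with no nearer TSS of another gene. ind had 1 optimal summit in its region, of 163, at 307 bp from the TSS of Sytbeta.

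Many of the summits near the 33 genes were nearer to a TSS of another gene. Of the 65 optimal summits in their regions, 24 lay in the bodies and 41 in the flanks, and 24 had one of the 33 as the gene of the nearest TSS. Promoters of any gene held 16 of the 65 (24.6%, against 27.4% of all optimal summits), and 11 of these 16 were over 500 bp from the TSS of the member. Introns held 34 (52.3%, against 48.2%), and coding sequence and 3′ UTRs held none. When a summit was counted only for the gene of the nearest TSS, a rule added after the data were seen, 11 of the 33 genes kept an optimal summit in the region in place of 19, and 4 in place of 5 at the promoter, par-6 being lost. Shares by the nearest TSS were not computed over all genes, so these counts cannot be read as particular to the 33.

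Both replicates had a peak at 62 of the 65 optimal summits, and the 3 others lay near par-6 and aPKC. At 58 of these 62 the signal value was higher in replicate 3, though the lists state no common scale. The full list of replicate 3 was also higher, with a median of 28.7 against 21.0 and a maximum of 3028 against 1850. Neither count was computed over all optimal summits, and the optimal list was itself made from the replicate lists. The median signal value of the 65 was 188, against 204 over the optimal list, and 30 of the 65 were above that median.

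**Figure D5:**
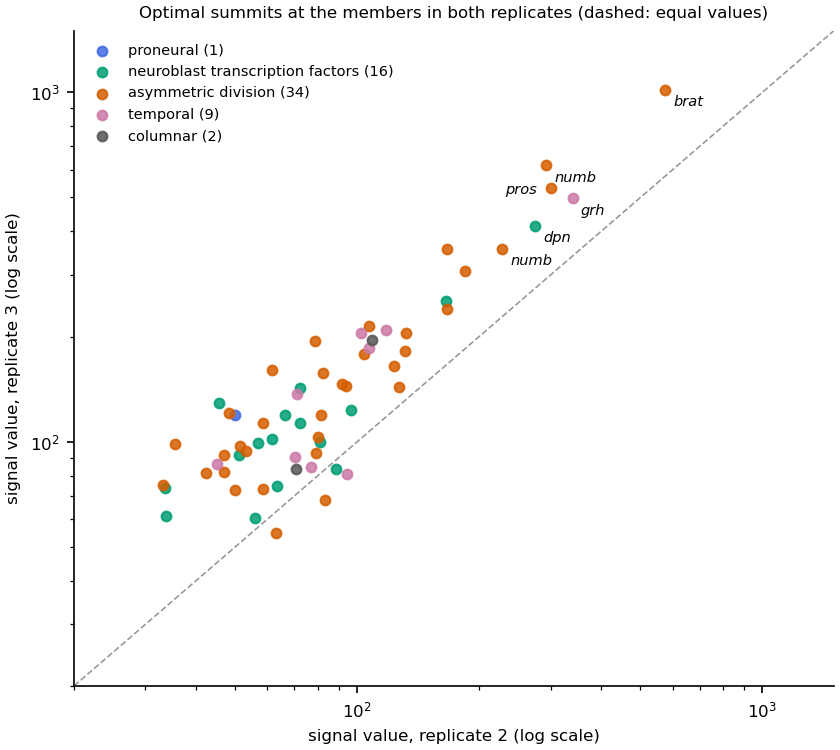
Signal values of the 62 optimal summits that lay in peaks of both replicates, with replicate 2 on the horizontal and replicate 3 on the vertical axis, both log, coloured by the group of the nearby gene and with the line of equal values dashed. Of the 62 points 58 lie above the line, where replicate 3 is higher, and the highest, in brat, has 574 and 1017. The point named pros lies at the TSS of mgr, downstream of pros.

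Other genes of the same processes were taken from lists of known partners. Of 16 partners of asymmetric division, such as the junction and spindle genes, 3 (18.8%) held an optimal promoter summit, against 24.9% of genes of similar length, and 6 (37.5%) a body summit, against 36.7%. At their promoters the signal values were 375 for dlg1, which encodes a basolateral scaffold, 174 for cno, a junction protein gene, and 124 for flfl, a phosphatase subunit gene. Their bodies held 26 optimal summits, against a sum of 16.1 for the means of genes of similar length, with 7 in scrib, 6 each in dlg1 and loco, 4 in cno, 2 in Galphai and 1 in flfl. Of 13 proneural partners and spatial genes, 1 (7.69%, against 21.0% of genes of similar length) held a promoter summit, neur, a ubiquitin ligase gene of Notch signalling, at 459, and 3 (23.1%) a body summit, neur, emc and mirr, against 23.6%. Of 12 later temporal and neuroblast-state genes, 2 (16.7%, against 25.4%) held a promoter summit, the RNA-binding protein gene Imp at 299 and dan at 140, and 4 (33.3%) a body summit, hth, Imp, ham and chinmo, against 44.3%. The gene hth held 13 of the 19 optimal summits in this last list, in a body of 132008 bp.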

How the data were processed

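Peaks came from 2 biological replicates of 1 group of ChIP-seq samples. The authors deposited narrowPeak lists on dm6 that give each peak's position, summit offset, signal value and −log10 q-value. Per the deposited file lists, alignments of a replicate and a control gave its list, both replicates' alignments and that control gave the pooled list, and these 3 lists gave the optimal IDR list. The control was not analysed here. No label or header names an aligner or peak caller. The deposited signal value was used only to rank, filter and describe peaks within a list. The deposited −log10 q-value was constant at 4.18 in the optimal list and was not used. The replicate and pooled lists each hold 30000 peaks, so weak summits depend on that limit. The other deposited numbers, interval starts, ends and summit offsets, gave 1-based summits, of which 3 in the optimal list lay outside their own interval and were kept.

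Genes, TSSs and canonical transcripts were those of Ensembl release 115, and every peak fell within the RefSeq arm lengths. All rows of a list were counted as peaks. A replicate was said to hold a summit when the summit lay in 1 of its peaks, and 1 peak can hold several. A replicate left out means as many of the highest peaks of the other one (for the pooled list, its full list). The 33 genes, their groups and the partner lists were chosen with earlier results of these data known. All members are accounted for, those with an optimal summit in the region in more detail, and up to 6 bound partners a list were named, highest promoter value first. No read counts were given, so no limit from depth could be set. Counting was tested on simulated peaks. Python 3.11.15, numpy 2.4.6, pandas 2.3.3, pyfaidx 0.9.0.4 and matplotlib 3.10.9 were used.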

Additional observations from a re-analysis of the deposited data

How the results depend on the processing

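Across the settings tried, 42 of 46 values of the 6 counts of members and of the share of genes of similar length stayed close to the values reported, within 1.5 times for a count. For the share, close meant within the standard deviation of its values with a replicate left out, 30.9% and 31.5%, themselves among the 46. Among peaks above the median signal, 13 members in place of 19 held an optimal summit in the region, still within 1.5 times. There 49.9% of all genes held one. The count with an optimal summit in the region was 11 in place of 19 when the nearest TSS had to be the member's, a rule added after the data were seen. The share of all genes under this rule was not computed. The count with a pooled promoter summit was 15 in place of 9 with a promoter window of 1000 bp, gaining pins, svp, Dr, tap, pdm2 and nub. The share of genes of similar length with an optimal body summit was 30.6% with a length factor of 1.5 and 21.4% among peaks above the median signal, in place of 31.2%, a setting in which 6 members in place of 8 held one.

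With 1 replicate left out, 5 members held an optimal promoter summit in either case, but par-6 gave way to insc without replicate 3. Of all genes, 20.4% held one without replicate 2 and 15.6% without replicate 3. Body counts were 7 without replicate 2, which lost klu, and 9 without replicate 3, which gained pros. The body shares of all genes were 15.0% and 13.9%. In the pooled list the promoter count was 7 to 11 and the body count 13 to 14 with 1 replicate left out. Among the counts by group, 178 stayed within 1.5 times or at 0 and 32 did not. Flanks of 5 kb gave 14 members and flanks of 20 kb gave 27, where 49.0% and 83.2% of all genes held a summit. No paired analysis was possible because the samples form 1 group. Depth was unknown, and a gene without a listed summit may have one below the limit of the list.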
